A study of Mus musculus with 12 samples.

Results

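The 10 genes described here supply arginine, clear its methylated forms, or carry the nitric oxide signal through cyclic GMP (cGMP): Ass1, Asl, Arg1, Arg2, Ddah1, Ddah2, Gucy1a1, Gucy1b1, Prkg1 and Pde5a. They were chosen by name, with earlier results of these data known. Counts of these genes are therefore set beside the share of all genes and were not tested. All 10 of 10 were found among 21631 protein-coding genes (autosomes 1 to 19 and the X chromosome). For each gene, every peak that overlapped its span or the 10 kb on either side was taken from 8 peak lists of chromatin immunoprecipitation and sequencing (ChIP-seq). The cells were N1E115, an established line of mouse neuroblastoma, labelled as positive for NOS1, the neuronal nitric oxide synthase. Cells were kept for 3 days at 20% or 4% O2, in each case with 5% CO2. An antibody to HIF1A, the oxygen-regulated subunit of HIF-1, or to its partner ARNT was used, with 2 lists for each antibody at each oxygen level. The 4 input samples, 2 at each oxygen level, served the authors' peak calling and have no list. The labels name no genetic change or drug, and they do not say whether replicates were separate cultures, so each test measures the spread of these samples alone, and that spread may be technical. Peaks carry no expression values, so the neuroblastoma label was not checked against marker genes.

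Nitric oxide synthases turn arginine into nitric oxide and citrulline. ASS1 and ASL rebuild arginine from citrulline, arginases consume arginine, and DDAH1 removes asymmetric dimethylarginine, a methylated arginine that inhibits the synthases. Nitric oxide binds soluble guanylate cyclase, a pair of subunits encoded by Gucy1a1 and Gucy1b1, which makes cGMP. The kinase encoded by Prkg1 responds to cGMP and the phosphodiesterase encoded by Pde5a breaks it down. HIF-1 is known to bind DNA at a short core sequence, ACGTG or GCGTG, in the regulatory elements of genes that respond to low oxygen.

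Lists held 1808 to 42701 peaks, and HIF1A at 4% O2 replicate 1 was the longest and ARNT at 20% O2 replicate 2 the shortest. Both HIF1A replicate 2 lists give positions of 1 bp and the other 6 give intervals. A region is a stretch where peaks of both lists of a group overlap by at least 1 bp, after 1 bp positions were widened by 100 bp on either side. A rank is where a peak stood, as a percentile, among the scores of the list it came from (100 at the top), and the score is the authors' own value on a scale that no header names. A list's length moves with depth and enrichment alike, and the depth is unknown because the lists hold no read counts. Per the file headers, the 4 replicate 1 lists came from a single sequencing lane and the ARNT replicate 2 lists from others. The HIF1A replicate 2 lists have no header.

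Promoter sequence, from 250 bases before to 50 bases after a start site, was available from RefSeq (GRCm38.p6, the build that the submitters call mm10) for 7 of the 10 genes, in 9 windows. Asl, Arg1 and Arg2 were the others. The windows printed here are those where at least 2 of the 8 lists had a peak, and they run 5′ to 3′ on the strand of the gene. Capitals mark ACGTG and GCGTG on either strand, which read CACGT and CACGC when they lie on the opposite strand. Coordinates are chr3:82145024-82145323 for Gucy1a1 (minus strand, at the downstream of its 2 start sites), chr2:31470020-31470319 for Ass1 (plus strand), chr17:35058785-35059084 for Ddah2 (plus strand) and chr3:82074662-82074961 for Gucy1b1 (minus strand).
Gucy1a1: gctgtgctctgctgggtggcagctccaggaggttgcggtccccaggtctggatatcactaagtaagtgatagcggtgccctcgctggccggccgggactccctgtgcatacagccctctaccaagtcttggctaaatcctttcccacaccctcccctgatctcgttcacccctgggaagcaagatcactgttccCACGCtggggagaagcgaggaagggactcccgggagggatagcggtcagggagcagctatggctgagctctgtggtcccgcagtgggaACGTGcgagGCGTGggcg
Ass1: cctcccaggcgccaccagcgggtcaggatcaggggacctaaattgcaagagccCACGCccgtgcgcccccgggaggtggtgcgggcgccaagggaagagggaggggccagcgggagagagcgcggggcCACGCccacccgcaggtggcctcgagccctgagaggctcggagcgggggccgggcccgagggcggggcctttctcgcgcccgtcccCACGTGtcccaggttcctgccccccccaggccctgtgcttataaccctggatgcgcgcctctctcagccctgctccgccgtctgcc
Ddah2: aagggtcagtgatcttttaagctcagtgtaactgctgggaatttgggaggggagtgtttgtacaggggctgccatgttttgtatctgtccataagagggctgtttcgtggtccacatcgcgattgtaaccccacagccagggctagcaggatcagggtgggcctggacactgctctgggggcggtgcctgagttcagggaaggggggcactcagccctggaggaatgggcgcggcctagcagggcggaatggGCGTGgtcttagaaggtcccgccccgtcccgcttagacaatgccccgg
Gucy1b1: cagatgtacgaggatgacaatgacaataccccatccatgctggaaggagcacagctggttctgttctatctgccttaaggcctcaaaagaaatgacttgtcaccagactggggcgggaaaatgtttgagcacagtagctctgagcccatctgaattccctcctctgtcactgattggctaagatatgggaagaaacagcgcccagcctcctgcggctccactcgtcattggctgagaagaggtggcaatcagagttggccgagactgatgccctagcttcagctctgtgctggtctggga

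Of the 9 windows of these genes, ACGTG lay in 2, GCGTG in 4 and either core in 4. Over all 32851 promoter windows in the table, 19.6% held ACGTG, 32.4% held GCGTG and 43.8% held either. The last is near 4 in 9. Gucy1a1 held ACGTG at base 283 and GCGTG at bases 195 and 292, counted from the 5′ end of the printed window. The pair at bases 283 and 292 lay under the ARNT peaks of both 4% O2 lists and the HIF1A peak of replicate 1. Ass1 held GCGTG at bases 54 and 129, and ACGTG at bases 215 and 216 on opposite strands, which overlap in a single palindrome. Its HIF1A peak of 4% O2 replicate 1 covered all of them, its ARNT peak of 4% O2 replicate 2 covered those at 54 and 129, and the HIF1A position of 20% O2 replicate 2 fell within that at 129. Ddah2 held a single GCGTG at base 253, under the replicate 1 peaks of both antibodies at 4% O2. Gucy1b1 held neither. Ddah1 held GCGTG at base 76, outside its peaks, and the windows of Prkg1 and Pde5a held neither core. A match is a description of these letters and not a measured site.

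At 4% O2, HIF1A had a region at 7 of the 10 genes, against 34.2% of all protein-coding genes: Ass1, Asl, Ddah1, Ddah2, Gucy1a1, Prkg1 and Pde5a. At 20% O2, HIF1A had one at 4, against 10.1% of all genes: Asl, Ddah2, Prkg1 and Pde5a. ARNT had one at 3 at 4% O2, against 27.7% of all genes, namely Ass1, Asl and Gucy1a1. ARNT also had one at 3 at 20% O2, against 7.11% of all genes, namely Asl, Prkg1 and Pde5a. Regions of both antibodies were found at 3 genes at 4% O2 (Ass1, Asl and Gucy1a1), against 24% of all genes, and at 3 at 20% O2 (Asl, Prkg1 and Pde5a), against 3.15%. ARNT without HIF1A at 4% O2 was found at 0 of the 10, against 3.7% of all genes. The ARNT share at 4% O2 was near the background. Arg1 and Arg2 had no peak in any list and Gucy1b1 no region in any group.

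In single lists, a HIF1A peak was found at 4 of the 10 genes in replicate 1 of 20% O2 (11.3% of all genes) and at 6 in replicate 2 (31.7%). At 4% O2 it was 7 in replicate 1 (56.9%) and 7 in replicate 2 (34.8%). An ARNT peak was found at 4 in replicate 1 of 20% O2 (22.3%) and at 3 in replicate 2 (7.6%). At 4% O2 it was 8 in replicate 1 (49.3%) and 6 in replicate 2 (35.5%). Of the 6 genes with an ARNT peak in both 4% O2 lists, Ddah1, Prkg1 and Pde5a had them at places that did not overlap. These last are long genes, and the matching shares of all genes are not given here.

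Background shares differ with gene length, and 3 of the genes are long. Prkg1, Ddah1 and Pde5a lie in the longest of 10 equal classes of window length (129 to 2410.4 kb), where 47.8% of genes had a HIF1A region at 4% O2 and 30.3% at 20% O2. The ARNT shares in that class were 33.6% and 13.7%. Ddah2, whose window of 23.1 kb is short, lies in a class where 27.4% had a HIF1A region at 4% O2 and 4.85% at 20% O2. Its window holds 4 other coding genes, Clic1, Mpig6b, Ly6g6c and Ly6g6d.

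Counting a region only for the gene with the nearest end, an alternative chosen after the data were seen, HIF1A had 6 of the 10 genes at 4% O2 and 2 at 20% O2. The background was then 26% and 8.06%. Asl and Ddah2 dropped out at 20% O2, and Ddah2 at 4% O2. ARNT had 2 at each level, against 19.9% of all genes at 4% O2 and 4.83% at 20% O2. Asl dropped out in both.

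**Figure D1:**
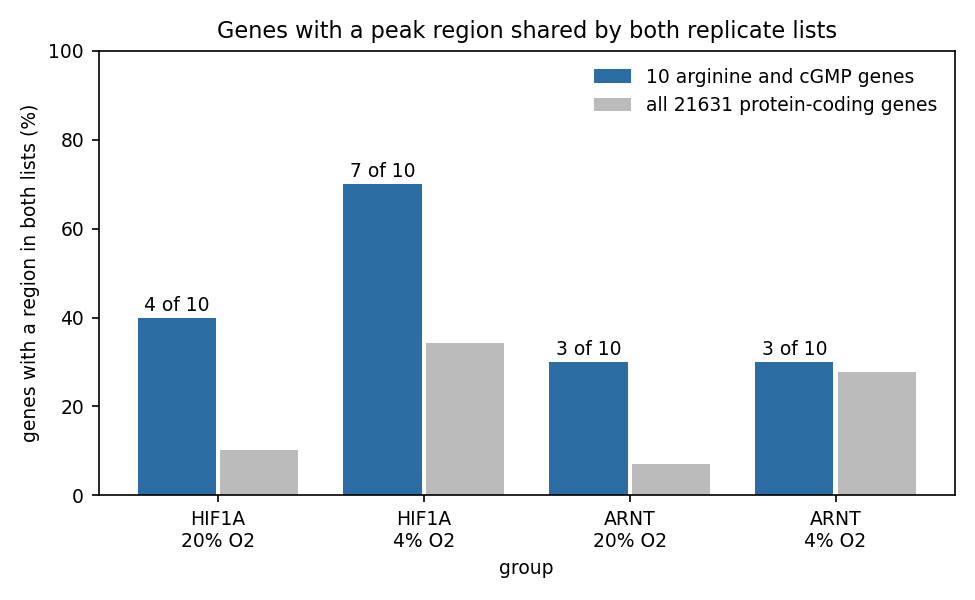
Percent of genes with a region shared by both replicate lists, for each antibody and oxygen level. Blue bars are the 10 arginine and cGMP genes, with their number above, and grey bars all 21631 protein-coding genes. The blue bars stand at 40%, 70%, 30% and 30%, and the grey bars at 10.1%, 34.2%, 7.11% and 27.7%.

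Ass1 encodes argininosuccinate synthase, which joins citrulline to aspartate (mm10 chromosome 2, 31470270 to 31520670). HIF1A lists had 0 and 1 peaks in its window at 20% O2, against 5 and 2 at 4% O2. ARNT lists had 2 and 0 at 20% O2 and 5 and 3 at 4% O2. Both 4% O2 lists were above both 20% O2 lists for each antibody. HIF1A averaged 0.5 ± 0.707 peaks at the higher oxygen level and 3.5 ± 2.12 at the lower (SD, n = 2). ARNT averaged 1 ± 1.41 and 4 ± 1.41 peaks in that order (SD, n = 2). The mean difference over antibodies was 3 peaks (two-sided exact permutation test of oxygen labels within antibody, p = 0.0556, the smallest that 36 arrangements allow).

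These Ass1 peaks formed 6 sites, a site being a stretch of overlapping peaks from any list. Where a list had more than 1 peak in a site, the rank given is the highest. The site at the start of the gene (31469966 to 31470274), whose promoter is printed above, had HIF1A peaks in both 4% O2 lists at ranks of 61.1 and 12.7. It also had a HIF1A peak at 20% O2 in replicate 2 (22.0) and an ARNT peak at 4% O2 in replicate 2 (23.1). A site 4596 bp into the gene (31474785 to 31474948) had ARNT peaks only, at 20% O2 in replicate 1 (90.5) and at 4% O2 in both (79.3 and 58.4). The site where both antibodies had a region at 4% O2 lay 43375 bp into the gene (31513434 to 31513857). Its ranks were 68.8 and 69.8 for HIF1A, with 77.8 and 88.7 for ARNT, and no list of 20% O2 had a peak there. The adjoining site (31513022 to 31513432) had the replicate 1 peaks of 4% O2 at ranks of 79.2 for HIF1A and 36.7 for ARNT, and an ARNT peak at 20% O2 in replicate 1 at 10.6. Of the 6 sites, 2 were nearer to an end of Hmcn2, which encodes a hemicentin of the extracellular matrix.

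Asl encodes argininosuccinate lyase, which releases arginine (chromosome 5, 130011258 to 130024381). Its window had 1 and 4 HIF1A peaks at 20% O2, against 6 and 3 at 4% O2. ARNT had 2 and 1 at 20% O2 and 4 and 2 at 4% O2. The oxygen levels overlapped for both antibodies (mean difference 1.75, exact permutation p = 0.278). Most of these peaks lay nearer to another gene. Of 6 sites, 5 had their nearest gene end in a neighbour, 4 of them at Crcp, which encodes a subunit of RNA polymerase III, and 1 at Gusb. The Crcp sites included 130031996 to 130032784, with a peak in all 8 lists, the highest in each at ranks of 53.8 to 98.4. Genome-wide, 216 of 47948 sites (0.45%) had a peak in all 8. Without the peaks nearest to another gene, the mean difference at Asl was 0.25 (exact permutation p = 1).

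The single site inside Asl (130023778 to 130023993) was centred 496 bp from the upper end of the gene. HIF1A peaks there ranked 93.8 and 82.1 at 4% O2, and 69.1 in replicate 2 at 20% O2. ARNT had a peak in the replicate 1 lists, at ranks of 79.6 at 4% O2 and 41.0 at 20% O2. This was the highest HIF1A rank at 4% O2 of any site nearest to an end of Ass1 or Asl.

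Arginases were without peaks. Arg1, the cytosolic arginase known from liver (chromosome 10, 24915207 to 24927470), and Arg2, the mitochondrial one (chromosome 12, 79130788 to 79156301), had 0 in each of the 8 lists. Of all protein-coding genes, 38.9% had no peak in any list. In the classes of window length of these genes the share was 31.6% for Arg1 and 27.7% for Arg2, so a gene with no peak is common. The lists do not give the signal below the authors' threshold, so weaker binding was not measured.

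Ddah1 encodes dimethylarginine dimethylaminohydrolase 1 (chromosome 3, 145758692 to 145894277). It had no peak of either antibody at 20% O2. At 4% O2, HIF1A had 5 and 1 peaks, and ARNT had 2 and 1. Averages over the 4% O2 lists stood at 3 ± 2.83 HIF1A peaks and 1.5 ± 0.707 ARNT peaks (SD, n = 2), and the groups did not overlap (mean difference 2.25, exact permutation p = 0.0556). Without HIF1A at 4% O2 replicate 1 the mean difference was 1.25. The site found by both HIF1A lists (145758980 to 145759245) was centred 420 bp after the start site. Its ranks were 62.1 and 11.2 for HIF1A and 14.2 for ARNT replicate 2, so 2 of its 3 peaks were among the weakest of their lists. Near the far end of the gene, 126796 and 127273 bp from the start, a pair of sites had a peak in the replicate 1 list of each antibody. Their ranks were 69.6 and 58.8 for HIF1A, with 72.7 and 76.1 for ARNT. The other 2 of its 5 sites were in HIF1A replicate 1 alone.

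Ddah2 encodes the second member of that family, in a dense part of chromosome 17 (35059035 to 35062099). HIF1A had 1 and 1 peaks in its window at 20% O2, against 5 and 2 at 4% O2, which did not overlap. ARNT had none at 20% O2 and 2 and 0 at 4% O2, which overlapped (mean difference over antibodies 1.75, exact permutation p = 0.167). Both HIF1A regions lay in Clic1, a chloride intracellular channel gene, 7105 and 7577 bp before the Ddah2 start site. The nearer of these (35051813 to 35052048) had HIF1A peaks in all 4 lists, at ranks of 88.2 and 86.6 at 20% O2 and 82.7 and 25.3 at 4% O2, and no ARNT peak. At Ddah2 itself, the site over the printed promoter (35058923 to 35059187) had the replicate 1 peaks of 4% O2 only, at 72.9 for HIF1A and 31.7 for ARNT. A site 782 bp after the start had the same lists, at 37.4 and 59.8. No replicate 2 list had a peak at either.

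**Figure D2:**
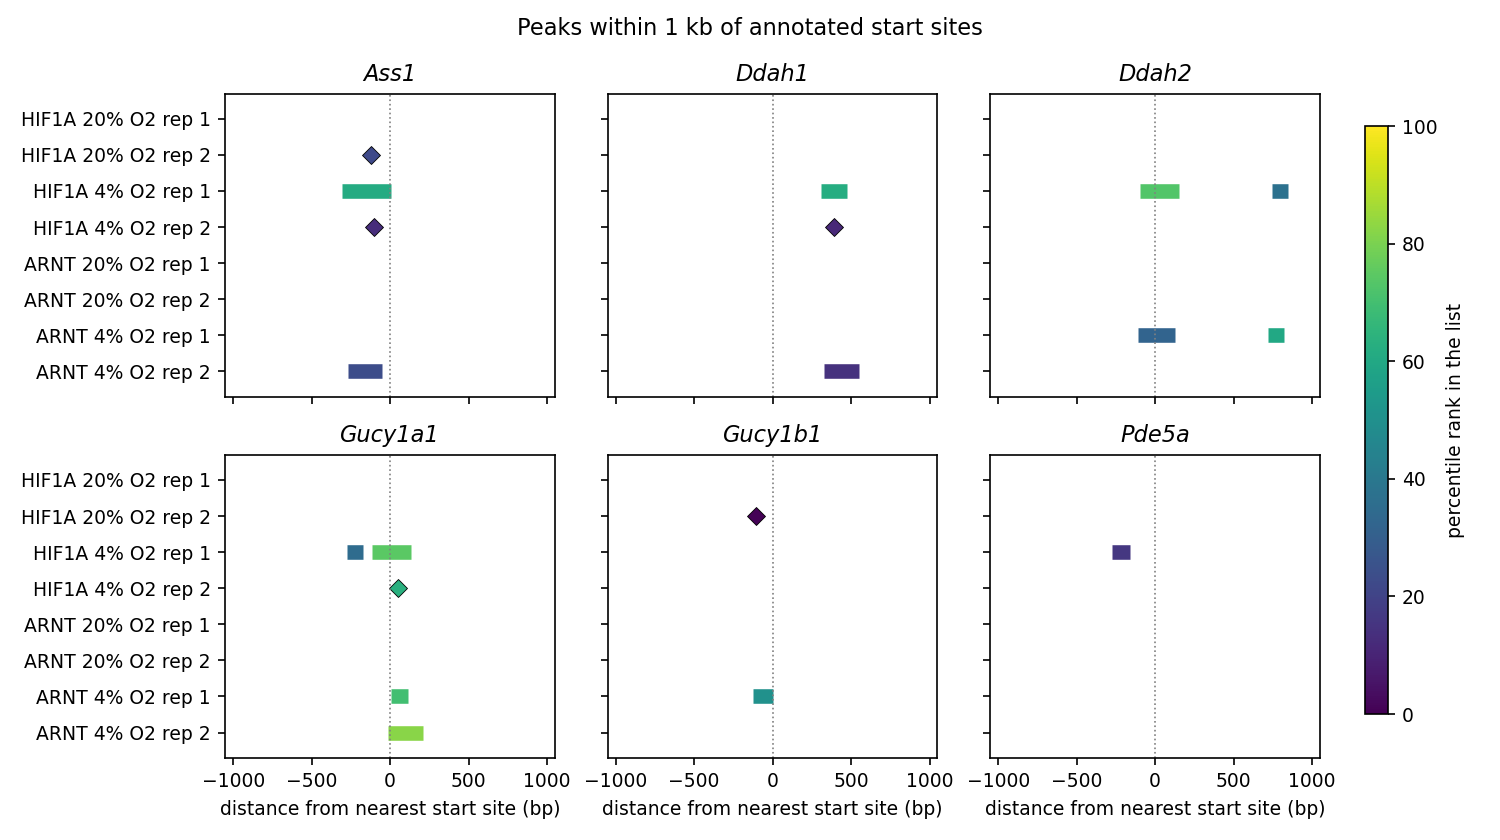
Peaks centred within 1 kb of the nearest annotated start site for 6 genes, by list, with distance in bp on the horizontal axis and negative values before the start. Bars are peaks at their width, diamonds are 1 bp positions and colour is the percentile rank. Gucy1a1 is the only one of these 6 with a peak in all 4 lists of 4% O2 there, and Ass1 and Gucy1b1 are the ones with a peak at 20% O2.

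Gucy1a1 encodes the alpha subunit of soluble guanylate cyclase (chromosome 3, 82092427 to 82145946). It had no peak at 20% O2 in any list. At 4% O2, HIF1A had 2 and 1 peaks and ARNT 1 and 1, so the oxygen levels did not overlap (mean difference 1.25, exact permutation p = 0.0556). All 4 lists of 4% O2 met at a single site (82144867 to 82145189), centred 45 bp after the downstream start site, at the 3′ end of the promoter printed above. The HIF1A position of replicate 2 (82145021) lay just past that window. Ranks at the site were 74.6 and 63.4 for HIF1A, with 69.6 and 82.1 for ARNT. Of the sites with their nearest gene end in one of the 10 genes, this one and that 43375 bp into Ass1 were the 2 with a region of each antibody at 4% O2. The second site, before the upstream start, was in HIF1A replicate 1 alone (34.9).

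Gucy1b1, which encodes the beta subunit and lies next to Gucy1a1 (82032004 to 82074711), had 2 peaks in all. One was from HIF1A at 20% O2 replicate 2 at a rank of 0.4, close to the weakest of its list, and the other from ARNT at 4% O2 replicate 1 at 50.1. They overlapped in a site centred 102 bp before the start, in the last of the printed promoters. The 3 other HIF1A lists and the 3 other ARNT lists had no peak in the window. The oxygen levels overlapped for both antibodies (mean difference 0, exact permutation p = 1). The difference between the 2 subunit genes was not tested.

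Prkg1 encodes cGMP-dependent protein kinase type I and spans most of a window of 1220.8 kb (chromosome 19, 30564487 to 31765268). HIF1A had 2 and 3 peaks at 20% O2, against 15 and 3 at 4% O2. ARNT had 4 and 2 at 20% O2 and 9 and 1 at 4% O2. The levels overlapped, and the 2 lists of 4% O2 differed more from each other than the group means did (mean difference 4.25, exact permutation p = 0.444). Per 100 kb of window, HIF1A at 4% O2 had 1.23 and 0.246 peaks, below the 1.62 and 0.519 of the genome. HIF1A at 20% O2 (0.164 and 0.246, against 0.205 and 0.509) and ARNT at 4% O2 (0.737 and 0.0819, against 0.948 and 0.377) were below it too. ARNT at 20% O2 was the group above it, at 0.328 and 0.164 against 0.275 and 0.0687. The mean difference was 1.25 without HIF1A at 4% O2 replicate 1, and 0.75 without the peaks nearest to an end of Cstf2t. Cstf2t lies within Prkg1. The 12 sites so left out were all inside Prkg1, up to 337385 bp from an end of Cstf2t. Of 19 sites, 10 were in 1 list.

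The site with the most lists at Prkg1 lay just past its downstream end (30563954 to 30564373), 1100207 bp from the nearest start site. It had peaks in 7 of 8 lists, all but ARNT at 4% O2 replicate 2. Ranks at 20% O2 were 90.0 and 96.3 for HIF1A, with 97.7 and 75.1 for ARNT. At 4% O2 they were 76.9 and 4.6 for HIF1A and 56.4 for ARNT. The second ARNT region of 20% O2 (31082847 to 31083032) was at Cstf2t, a gene for a cleavage stimulation factor that lies within Prkg1, at ranks of 75.0 and 74.4. The replicate 1 lists of 4% O2 also had peaks there, at 65.5 for ARNT and 15.8 for HIF1A. The other HIF1A regions of 4% O2, at 31393233 to 31393433 and 31423695 to 31424259, lay deep inside the gene, at ranks of 23.2 and 25.7 and of 76.9 and 21.5. The second of these also had ARNT replicate 1 peaks, at 77.4 at 20% O2 and 8.4 at 4% O2. At the upstream start site of Prkg1, HIF1A at 4% O2 replicate 1 had a peak at a rank of 14.5 and no other list had one.

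**Figure D3:**
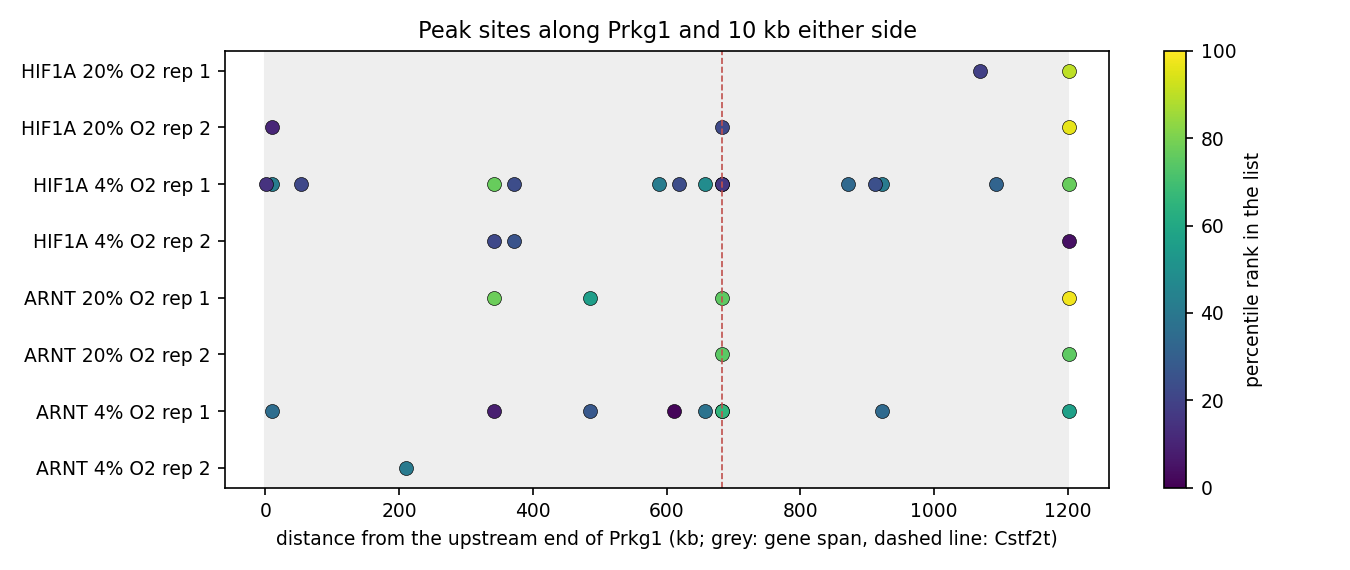
Sites along Prkg1 by list, with distance from its upstream end in kb, the gene span in grey, Cstf2t as a dashed line and colour for the percentile rank. The 20% O2 lists have their highest ranks (75.1 to 97.7) at the far right, past the downstream end, and the many points of HIF1A 4% O2 replicate 1 stand at ranks up to 76.9.

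Pde5a encodes the cGMP-specific phosphodiesterase 5A (chromosome 3, 122729158 to 122859374). HIF1A had 2 and 2 peaks at 20% O2, against 6 and 2 at 4% O2, and each ARNT list had 1. The levels overlapped (mean difference 1, and 0 without HIF1A at 4% O2 replicate 1, exact permutation p = 1). A site 71705 bp into the gene (122800510 to 122801217) had peaks in 7 of 8 lists, all but ARNT at 4% O2 replicate 2. Its HIF1A ranks were 90.0 and 93.6 at 20% O2 and 94.5 and 72.1 at 4% O2, and its ARNT ranks 95.8 and 48.6 at 20% O2 and 73.2 at 4% O2. A second HIF1A region of 20% O2, beside it (122800159 to 122800368), ranked 7.1 and 3.4. HIF1A at 4% O2 replicate 1 also had a peak there, at 45.9. A site 72909 bp into the gene (122801945 to 122802189) had peaks at 4% O2 only, at 49.8 and 67.6 for HIF1A and 65.2 for ARNT replicate 2. ARNT at 4% O2 thus had a peak in each list but at different sites. The start of Pde5a had a peak in HIF1A at 4% O2 replicate 1 alone (15.8).

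**Figure D4:**
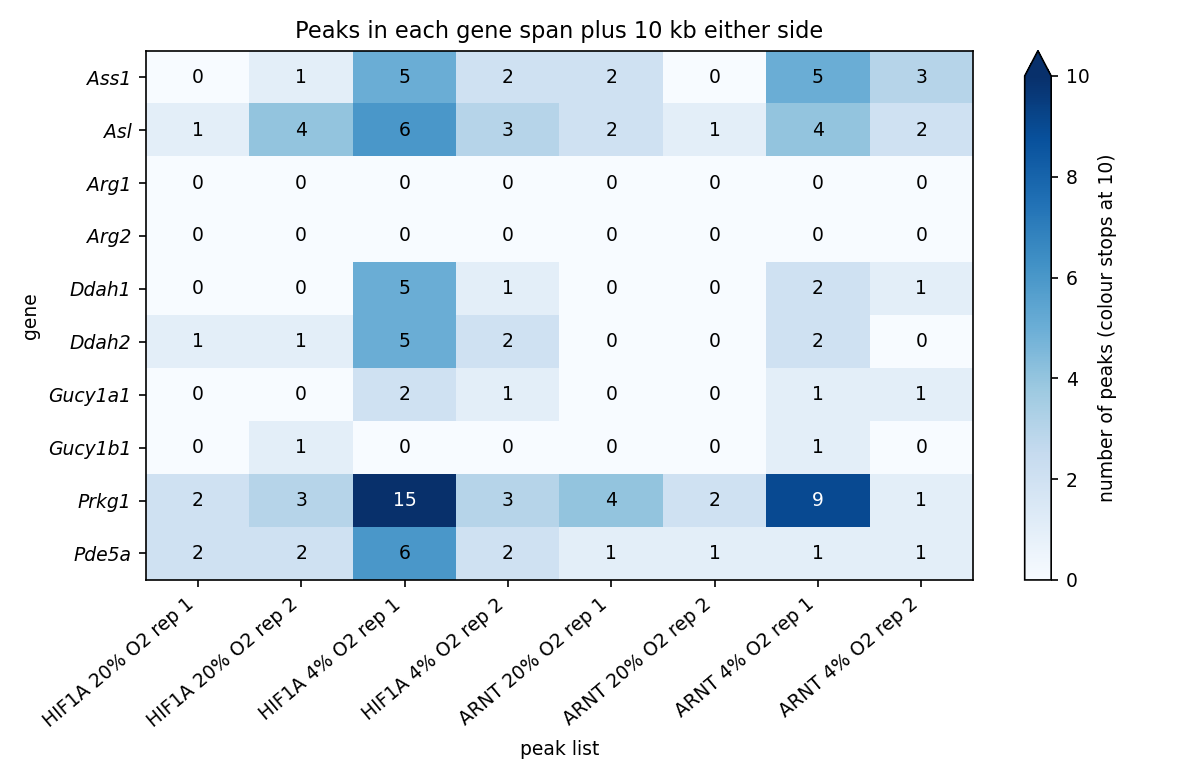
Number of peaks in the span of each gene plus 10 kb on either side, with genes in rows and the 8 lists in columns. Rows for Arg1 and Arg2 are 0 throughout, those for Ddah1 and Gucy1a1 are 0 at 20% O2 and above 0 in each list of 4% O2, and the highest number is 15 for Prkg1.

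More peaks in both 4% O2 lists than in both 20% O2 lists, for both antibodies, were found at 3 of the 10 genes, Ass1, Ddah1 and Gucy1a1, against 10.3% of all genes. For HIF1A alone there were 4, with Ddah2, against 17.1%, and for ARNT alone 3, against 21.2%. Fewer peaks in both 4% O2 lists for both antibodies were found at 0 of the 10, against 0.00462% of all genes. No gene can pass 0.05 in this test, and the adjusted p of the 3 genes over all genes was 0.541 (Benjamini-Hochberg). Within the replicate 1 lists, which shared a lane, the 3 genes had 0, 0 and 0 HIF1A peaks at 20% O2 and 5, 5 and 2 at 4% O2. Their ARNT peaks in these lists were 2, 0 and 0 at 20% O2 and 5, 2 and 1 at 4% O2. The genes were picked for having more peaks in every 4% O2 list. The direction within a lane was thus fixed, and the role of the lane was not tested. Each of the 3 lost the separation in another setting: Ass1 within the gene span alone (p = 0.111, exact permutation test), Gucy1a1 with windows of 20 kb (p = 0.111) and Ddah1 with the upper 50% of each list by score (p = 0.5). Lists of 4% O2 are longer, but unevenly so. HIF1A lists held 5393 (replicate 1) and 13386 (replicate 2) peaks at 20% O2, against 42701 and 13655 at 4% O2. ARNT lists held 7252 and 1808 at 20% O2, against 24942 and 9920 at 4% O2. In the HIF1A replicate 2 lists, nearly equal in length, Ass1 had 1 peak at 20% O2 and 2 at 4% O2. Ddah1 and Gucy1a1 each had 0 and 1 there. Per 10000 peaks of a list, 2 of the 10 genes, Ddah1 and Gucy1a1, were higher in both 4% O2 lists of both antibodies, against 6.64% of all genes. Their 20% O2 lists have 0 peaks, which no scaling changes, so this does not test the part of list length. Ass1 was not higher on that scale, because ARNT at 20% O2 replicate 1 had 2.76 per 10000 and ARNT at 4% O2 replicate 1 had 2. Pde5a was lower on that scale in both 4% O2 lists of both antibodies, against 1.73% of all genes, though for HIF1A by as little as 1.46 against 1.49.

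With each list limited to its 1808 highest peaks, the length of the shortest, fewer of the genes had a HIF1A region at 4% than at 20% O2. Of the 10 mean differences in peak number, 4 turned negative (Asl, Ddah2, Prkg1 and Pde5a), Ass1 and Ddah1 came to 0 and Gucy1a1 to 0.25. The share of all genes with a negative difference is not given here, so that count has no background. The peaks left at Asl and Ddah2 lay nearest to Crcp and Clic1. HIF1A then had a region at 4 of the 10 genes at 20% O2 (Asl, Ddah2, Prkg1 and Pde5a), against 2.94% of all genes, and at 1 at 4% O2 (Asl), against 6.65%. ARNT had 3 at 20% O2 (Asl, Prkg1 and Pde5a), against 4.66%, and 0 at 4% O2, against 5.41%. No gene of the 10 then had more peaks in both 4% O2 lists for both antibodies (0 of 10, against 1.85% of all genes). Prkg1 and Pde5a had fewer of these peaks in both 4% O2 lists than in both 20% O2 lists for both antibodies, which holds for 0.49% of all genes (exact permutation p = 0.0556 for each). The mean differences of these were -1.5 and -1 peaks. A place in a limited list depends on all the other peaks of that list, so leaving it is no measure of binding at the site.

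For scale, the best ranks at 4% O2 of 3 known HIF-1 targets were 99.9 to 100 at Pgk1, a glycolysis gene, 99.8 to 99.9 at Bnip3, a mitophagy receptor gene, and 86.1 to 98.7 at Vegfa. Among the 10 genes, the best ranks at 4% O2 were 69.8 to 88.7 at Ass1, 63.4 to 82.1 at Gucy1a1, 65.2 to 94.5 at Pde5a and 11.2 to 76.1 at Ddah1. The window of Asl reached 76.8 to 98.4 and its highest peaks lay at Crcp. No other gene of the 10 reached 95 at 4% O2.

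**Figure D5:**
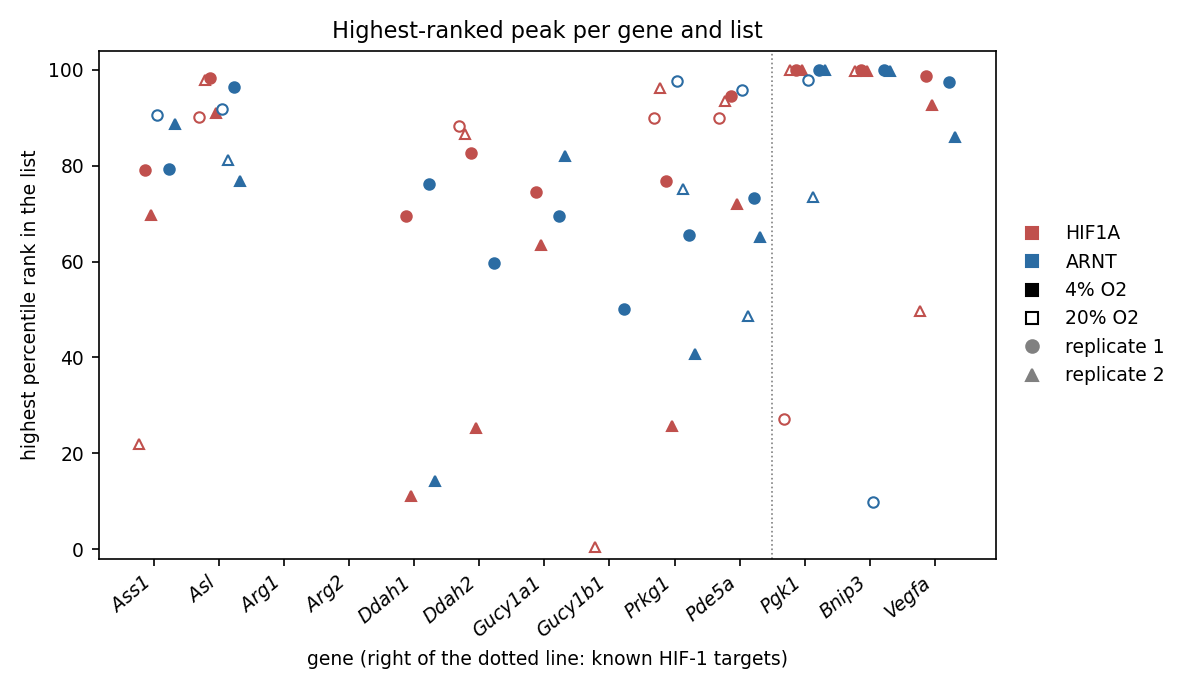
Highest percentile rank among the peaks of each gene in each list, with the 10 genes left of the dotted line and 3 known HIF-1 targets right of it. Red is HIF1A, blue ARNT, filled marks 4% O2, open marks 20% O2, circles replicate 1 and triangles replicate 2, and no mark means no peak. Pgk1 and Bnip3 have all filled marks at 99.8 or more, and Ass1, Ddah1, Gucy1a1 and Pde5a have theirs below 95.

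Over the 10 genes, peaks formed 50 sites. Of these, 33 (66%) had peaks at 4% O2 only, 1 (2%) at 20% O2 only and 16 (32%) at both. The shares over all 47948 sites were 66.7%, 3.05% and 30.2%. Both antibodies met at 23 of the 50 sites (46%, against 49.2% of all sites), and 23 had HIF1A only (46%, against 41.9%) and 4 ARNT only (8%, against 8.92%). HIF1A at 4% O2 replicate 1 alone gave 18 sites (36%, against 33.4%). These shares were close to those of the whole set. Sites with 7 or 8 lists were 3 of 50 (6%, against 2.42%): those at Crcp, past the end of Prkg1 and inside Pde5a.

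Other genes of arginine and cGMP biology, 36 from a list fixed with earlier results of these data known, showed shares near the background at 4% O2. HIF1A had a region at 10 of 36 (27.8%, against 34.2%) and ARNT at 10 of 36 (27.8%, against 27.7%). At 20% O2 HIF1A had 8 (22.2%, against 10.1%) and ARNT 5 (13.9%, against 7.11%). Genes with regions of both antibodies at 4% O2 were 7, against 24% of all genes. Led by Pde11a, a dual-specificity phosphodiesterase, at a mean rank of 92.0, they were Slc7a1, a cationic amino acid transporter (80.2), Pde10a (71.2), Odc1, ornithine decarboxylase (69.9), Slc3a2, a transporter heavy chain (64.0), Azin2 (58.0) and Oat, ornithine aminotransferase (35.0). None of the 4 other cyclase genes (Gucy1a2, Npr1, Npr2 and Gucy2c) had a region at 4% O2. Of the 4 other effectors 1 did, for HIF1A only, namely Prkg2, which encodes the type II kinase. The cyclase genes and Prkg2 are named here after their values were seen.

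Of the synthases that use arginine, Nos1 had no peak in any list within 10 kb of its span. The same held for 38.9% of all protein-coding genes. In the classes with windows of 56.3 to 77.7 kb and 129 to 2410.4 kb, it held for 28.8% and 29.9%. The window of Nos1 lies between these in length, in a class whose share is not given here. Nos2 had regions at 4% O2 at mean ranks of 22.6 for HIF1A and 40.6 for ARNT, and Nos3 at 98.5 and 97.2 in that order. These are the highest of 3 HIF1A and 2 ARNT regions at Nos3, and both were centred nearest to an end of Atg9b, a neighbouring autophagy gene. HIF1A also had a region at Nos3 at 20% O2, at 90.1.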

How the data were processed

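HIF1A and ARNT binding was measured by ChIP-seq in 8 samples of N1E115 cells, in 4 groups of 2 taken from the sample titles. The tools named per the submitters' processing notes are BWA, Picard and MACS2, on build mm10, with no version or setting given in the sources used here. The authors called peaks sample by sample, HIF1A replicate 2 against input 5 and the rest against input 4, as the deposited lists are named. Reads of HIF1A replicate 2 were combined from separate sequencing runs, per the labels' design text. The deposited score per peak is the authors' own value, used here only as a percentile rank within its list. Gene spans, names and promoters came from RefSeq tables of GRCm38.p6, and exons and introns were not used here.

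Peaks, regions and ranks were computed in Python 3.11.15 with pandas 2.3.3 over gene spans plus 10 kb. The peak number of each gene was compared by a two-sided exact permutation test (36 arrangements) with Benjamini-Hochberg adjustment over 21631 genes. The scripts were tested on simulated peaks. Named were the 10 genes, their regions, the nearest gene ends, up to 8 other pathway genes with regions of both antibodies at 4% O2, Nos1 to Nos3 and 3 known targets. The genes and lists were chosen with earlier results of these data known.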

Additional observations from a re-analysis of the deposited data

How the results depend on the processing

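Of the region counts in the 4 groups, 35 of 44 alternatives stayed within 1.5 times the reported number. HIF1A at 20% O2 had 4 genes, and 2 with windows of 5 kb, 1 with the gene span alone and 2 by the nearest gene end. HIF1A at 4% O2 had 7, and 1 with lists of equal length and 4 with the upper 50% of each list by score. ARNT at 4% O2 had 3, 0 with lists of equal length and 6 where peaks of both lists needed no overlap. Leaving out a replicate gave 4 to 6 genes for HIF1A at 20% O2, 7 in both cases for HIF1A at 4% O2, 3 to 4 for ARNT at 20% O2 and 6 to 8 for ARNT at 4% O2. In ARNT at 4% O2 it was 6 without replicate 1 and 8 without replicate 2. In every group a single list then makes the call, with no overlap needed, so these counts do not measure stability. They are among the 44 alternatives, so that tally is no measure of stability either.

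Genes with a peak in a single list were, for HIF1A at 20% O2, 2 against 4 in replicate 1 with windows of 5 kb and with the span alone, and 3 against 6 in replicate 2 with the span alone. At 4% O2, lists of equal length gave 1 against 7 in each HIF1A list, 1 against 8 in ARNT replicate 1 and 2 against 6 in ARNT replicate 2. The upper 50% of HIF1A replicate 2 gave 4 against 7.

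The 3 genes above in all 4% O2 lists were 0 with lists of equal length, and 3 to 4 when a replicate was left out. Leaving out a list can only keep or add such genes, so that count could not fall. They were 2 with the gene span alone, with windows of 20 kb, with the upper 50% of each list and per 10000 peaks (Ass1, Gucy1a1, Ddah1 and Ass1 lost, in that order). With lists of equal length the mean difference in peaks turned to -0.25 at Asl, -0.5 at Ddah2, -1.5 at Prkg1 and -1 at Pde5a. With the upper 50% of each list it was -1 at Prkg1. Per 10000 peaks of a list it was -1.48 at Asl, -3.05 at Prkg1 and -1.96 at Pde5a. The cause was not tested. The scale per 10000 peaks leaves a gene with 0 peaks at 0, so it does not take list length out for Ddah1 and Gucy1a1.

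The labels do not say that replicate numbers pair the samples. Deviations of same-numbered lists correlated across genes at -0.28 for HIF1A and 0.37 for ARNT. With the replicate number as a block, Ass1, Ddah1 and Gucy1a1 each had an exact permutation p of 0.125, the smallest that 16 arrangements allow, and so they did with the HIF1A numbers crossed, which was added after the data were seen. No call was gained or lost, since no test here can pass 0.05.

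Of the peak-number comparisons, counts of genes included, 167 of 187 alternatives kept the direction or, for a count, stayed within 1.5 times. Some of these could not change: Arg1 had no peak in any setting, and a replicate block leaves every mean difference as it was. The count of genes above in all 4% O2 lists could not fall when a replicate was left out. The tally is thus no measure of stability. Sizes also moved. At Prkg1 the mean difference went from 4.25 to 0.75 without the peaks nearest to an end of Cstf2t, a gene inside it. Of the best ranks, 66 of 77 moved by no more than the spread of replicates, and 13 more had no peak left in the narrower window. A narrower window can only keep or lower a best rank, and keeps it where the best peak lies inside the gene. The spread was the SD of 2 lists, which was often wide, so this tally is no measure of stability either. Depth could not be set equal, since the lists hold no reads.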

Other observations

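Of the 36 other pathway genes, 3 had an ARNT region without a HIF1A region at 4% O2, against 3.7% of all protein-coding genes. They were chosen after their values were seen. Prmt1, which encodes the main enzyme of asymmetric arginine dimethylation, had 2 ARNT regions at 20% O2, the higher at a mean rank of 97.9, and 1 at 4% O2 at 73.9, centred 86 bp from a gene end. Its HIF1A peaks at 4% O2 were 3 in replicate 1 and 0 in replicate 2. Prmt5, for symmetric dimethylation, had an ARNT region at 4% O2 at 36.3 and a HIF1A region at 20% O2 at 84.0. Aldh18a1, which encodes an enzyme on the route from glutamate to proline and ornithine, had ARNT regions at 81.5 at 20% O2 and 81.2 at 4% O2. HIF1A had 0 and 0 peaks there at 20% O2 and 1 and 1 at 4% O2, without overlap. Whether the antibodies differ at these genes was not tested.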
